A study of Homo sapiens with 8 samples.

Results

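Receptor tyrosine kinases, the cell surface receptors that pass growth factor signals into the cell, were examined in uveal melanoma (UVM) cells with raised or lowered APOBEC3B (A3B). The 10 genes described here, EGFR, ERBB2, ERBB3, MET, KIT, AXL, PDGFRB, IGF1R, FGFR1 and EPHA2, were chosen by symbol for their known parts in melanoma cell states, and all 10 are among the 19952 gene symbols listed for each library. RNA was sequenced from 8 libraries in 4 groups of 2. In 92.1 cells, A3B was depleted by a short hairpin RNA in a lentiviral vector (shA3B) and set against control cells (shCtrl), which the study's methods describe as carrying the empty vector. In MEL290 cells, A3B was expressed from a lentiviral vector (A3B OE) and set against a negative control (NC). Both lines are established human UVM lines grown in the same medium, and transduced cells were selected with puromycin. Which hairpin was sequenced, and whether the libraries of a group came from separate cultures, is not given in the sources used here, so the p-values measure only the spread between these libraries, which may be technical.

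A receptor tyrosine kinase binds its ligand outside the cell, pairs with a second receptor, and phosphorylates tyrosines to which adaptor proteins dock, and the signal then runs through RAS and the MAP kinases and through PI3 kinase. In melanoma, differentiated cells with active MITF and SOX10 typically carry ERBB3 or KIT, whereas dedifferentiated cells typically carry AXL, EGFR and PDGFRB. UVM is usually driven by activating changes in G protein alpha subunits, upstream of the same MAP kinases.

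The values are FPKM, in which the authors scaled fragments to transcript length and to the mapped total. The sum over all genes is not fixed by this scaling and ran from 609900 to 677900 FPKM per library. Levels are therefore only roughly comparable between libraries. A loose depth, read from the steps between the lowest values, ran from 17630000 to 31960000 fragments per library. The libraries of a group correlated at 0.990 to 0.991 on the log2 scale, and those of different lines at 0.680 to 0.699. The targeted gene followed the labels. APOBEC3B was at 35.9 and 32.3 FPKM in shCtrl and at 1.98 and 2.37 FPKM in shA3B libraries, and at 2.67 and 2.19 FPKM in NC and 28.4 and 27.5 FPKM in A3B OE libraries. The lines also differed in their markers. The 10 melanocyte markers summed to 7292 to 8900 FPKM in 92.1, mostly from PMEL and TYRP1, and to 32.6 to 39.4 FPKM in MEL290. In MEL290, SOX10 reached at most 0.168 FPKM and TYR was listed at 0 in all 4 libraries. MITF stood there at 13.7 to 19.6 FPKM and GPR143 at 14.8 to 18.7 FPKM. Of the 10 markers, 2 reached 1 FPKM in each NC library and 3 in each A3B OE library. Most of these pigment cell markers were therefore absent or low in the MEL290 RNA. Of the 5 epithelial markers listed, the keratins KRT8 and KRT18 were at 770 to 1298 FPKM in MEL290 and at most 4.09 FPKM in 92.1. The rest of that list was low in MEL290 too. KRT5 was listed at 0 in all 8 libraries, and EPCAM was at most 0.0728 FPKM in any library. CDH1 was at most 0.393 FPKM in 92.1 and NC libraries, and at 0.301 and 2.14 FPKM in A3B OE libraries. The 9 listed markers of undifferentiated melanoma summed to 38.8 to 40.6 FPKM in 92.1 and 1009 to 1571 FPKM in MEL290. Fibroblast markers summed to 6.16 to 8.33 FPKM in 92.1, mostly from LUM, and to 27.2 to 41.0 FPKM in MEL290, mostly from COL1A1. LUM went the other way, at 3.58 to 5.03 FPKM in 92.1 and at most 0.126 FPKM in MEL290. Leukocyte markers were carried by 1 of 5 genes in each library.

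Sequence upstream of the start sites is shown for 4 of the 5 receptors that are higher in MEL290, since the line difference turns on them, and PDGFRB, whose listed start lies inside the annotated gene, is left out. Each run is the 250 bases before the start site, read 5′ to 3′ on the gene's strand (RefSeq, GRCh38.p14), and capitals mark matches, on either strand, to any of the motifs searched. These were the AP-1 site TGANTCA, the TEAD site GGAATG, the E-boxes CATGTG and CACGTG, the GC box GGGCGG and the TATA box TATAAA.
AXL, chr19:41218973-41219222, plus strand: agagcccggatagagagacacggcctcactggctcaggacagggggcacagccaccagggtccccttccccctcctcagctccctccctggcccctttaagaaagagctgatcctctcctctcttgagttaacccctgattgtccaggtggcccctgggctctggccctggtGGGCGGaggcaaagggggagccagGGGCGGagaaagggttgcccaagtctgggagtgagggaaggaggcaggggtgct
EGFR, chr7:55018767-55019016, plus strand: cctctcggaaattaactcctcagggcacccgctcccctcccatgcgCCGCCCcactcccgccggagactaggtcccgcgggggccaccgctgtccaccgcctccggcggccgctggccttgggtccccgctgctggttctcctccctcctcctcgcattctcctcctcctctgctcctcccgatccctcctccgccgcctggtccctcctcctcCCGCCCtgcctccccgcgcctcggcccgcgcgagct
MET, chr7:116671946-116672195, plus strand: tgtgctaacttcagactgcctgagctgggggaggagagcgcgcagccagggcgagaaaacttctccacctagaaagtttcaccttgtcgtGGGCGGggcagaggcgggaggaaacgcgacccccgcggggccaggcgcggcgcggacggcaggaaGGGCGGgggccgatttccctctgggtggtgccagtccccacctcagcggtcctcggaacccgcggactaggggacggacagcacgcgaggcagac
EPHA2, chr1:16156070-16156319, minus strand: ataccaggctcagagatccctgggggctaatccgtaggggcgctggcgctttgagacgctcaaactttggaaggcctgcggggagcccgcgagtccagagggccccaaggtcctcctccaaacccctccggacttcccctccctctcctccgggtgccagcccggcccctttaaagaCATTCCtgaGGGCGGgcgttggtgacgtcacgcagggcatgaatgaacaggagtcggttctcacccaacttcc
The 4 windows hold 63.2% to 73.6% G and C, and each holds a GC box, as do 42.6% of the 35116 windows of this length in the table. In AXL the GC boxes begin at positions -78 and -54 from the start site, in EGFR at -204 and -36, and in MET at -160 and -95. EPHA2 holds a GC box at -64 and, shortly before it, a TEAD match at -73, a motif present in 11.9% of windows. The table holds a further downstream start for EGFR and for AXL, whose windows are not printed. The EGFR one holds AP-1, TEAD, E-box and TATA matches and the AXL one TEAD and E-box matches. None of the 4 windows printed holds the AP-1 motif (6.57% of windows), either E-box (9.42% and 6.34%) or the TATA box (10.7%). A match describes letters only and not a bound site. ERBB3 is not in the table. The genes themselves were placed by GENCODE release 44 (GRCh38), with EGFR (chr7:55019017-55211628) and MET (chr7:116672196-116798377) on the same chromosome. ERBB2 lies at chr17:39687914-39730426, ERBB3 at chr12:56076799-56103505, IGF1R at chr15:98648539-98964530 and KIT at chr4:54657267-54740783 on the plus strand. EPHA2 (chr1:16124337-16156069) and PDGFRB (chr5:150113839-150155872) lie on the minus strand.

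Members of the ERBB family differed between the lines in opposite directions. EGFR, the receptor for EGF and TGFA, was listed at 0 in all 4 libraries of 92.1, and stood at 41.3 and 38.9 FPKM in NC and at 39.7 and 41.9 FPKM in A3B OE libraries. A listing of 0 can be a failed estimate. The 15 housekeeping genes examined were above 0 in each library, but this does not check the estimate of EGFR itself. ERBB3, the neuregulin receptor, which has little kinase activity of its own and signals mainly with ERBB2, went the other way. Its levels were 47.3 and 41.3 FPKM in shCtrl, 40.2 and 39.7 FPKM in shA3B, 0.155 and 0.553 FPKM in NC, and 0.397 and 0.441 FPKM in A3B OE libraries. No library of one line came near those of the other. ERBB2, the ligandless partner of the family, stayed near 20 FPKM throughout, at 19.4 and 20.9 in shCtrl, 18.0 and 17.6 in shA3B, 20.4 and 19.8 in NC, and 19.8 and 17.4 in A3B OE libraries.

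AXL, the receptor for GAS6 and a member of the TAM family with TYRO3 and MERTK, had the widest range. It was at 0.0156 and 0.0273 FPKM in shCtrl, 0.0726 and 0.0511 FPKM in shA3B, 191 and 198 FPKM in NC, and 427 and 392 FPKM in A3B OE libraries. The MEL290 groups did not overlap with each other or with 92.1, and levels of at most 0.0726 FPKM in 92.1 are too low for a comparison between its groups. PDGFRB, the receptor for PDGF-B and PDGF-D, showed the same division between lines at a lower level. It was at 0.0658 to 0.255 FPKM across the 4 libraries of 92.1, at 18.4 and 16.4 FPKM in NC, and at 19.9 and 18.0 FPKM in A3B OE libraries. KIT, the receptor for KITLG that guides normal melanocytes, was near absent in both lines, at most 0.0438 FPKM in 92.1 and listed at 0 in all 4 libraries of MEL290.

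MET, the receptor for HGF, was present in every library and higher in MEL290. Its levels were 12.4 and 13.1 FPKM in shCtrl, 16.9 and 18.8 FPKM in shA3B, 48.0 and 43.8 FPKM in NC, and 49.2 and 51.8 FPKM in A3B OE libraries, so that none of the 4 groups overlapped. EPHA2, an ephrin-A receptor, divided the same way by line, at 13.6 and 15.1 FPKM in shCtrl, 16.8 and 13.7 FPKM in shA3B, 59.2 and 56.4 FPKM in NC, and 62.4 and 54.5 FPKM in A3B OE libraries. Within each line its groups overlapped.

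IGF1R and FGFR1 were held at like levels in the 8 libraries. IGF1R, the receptor for the insulin-like growth factors, was at 16.5 and 15.6 FPKM in shCtrl, 12.7 and 17.8 FPKM in shA3B, 20.8 and 17.7 FPKM in NC, and 17.9 and 17.3 FPKM in A3B OE libraries. FGFR1, a fibroblast growth factor receptor, was at 32.5 and 32.5 FPKM in shCtrl, 33.3 and 26.9 FPKM in shA3B, 35.9 and 29.3 FPKM in NC, and 32.8 and 26.5 FPKM in A3B OE libraries. For FGFR1, neighbouring groups in the order of the means overlapped throughout.

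**Figure D1:**
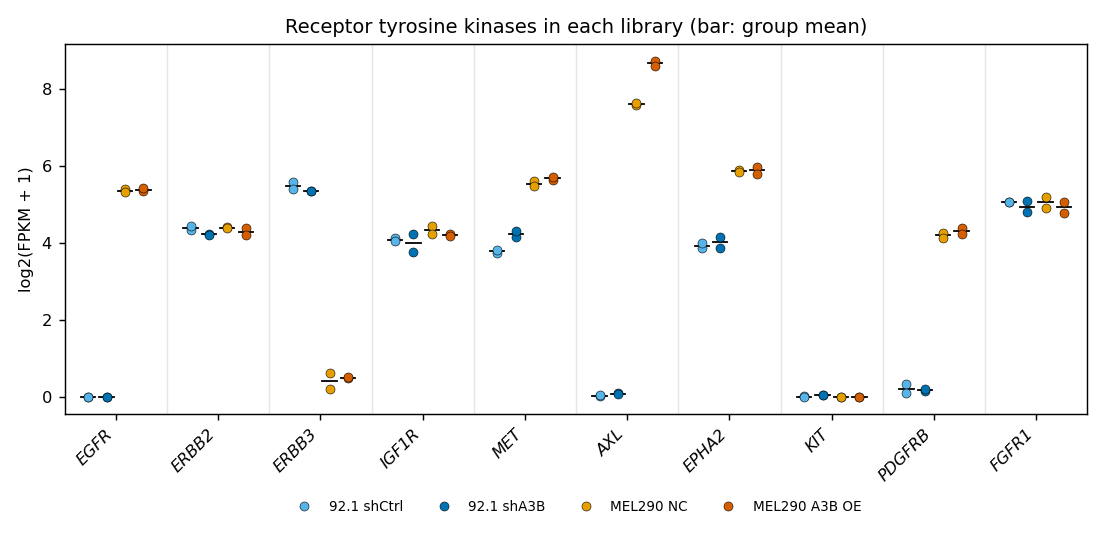
The vertical axis is log2(FPKM + 1), points are single libraries coloured by group, and bars are group means. EGFR, AXL and PDGFRB are near 0 in 92.1 and high in MEL290, ERBB3 is the reverse, and AXL lies above its NC level in both A3B OE libraries. MET also lies higher in shA3B than in shCtrl cells, without a call.

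The receptor make-up of the lines differed accordingly. In shCtrl cells the order of levels was ERBB3, FGFR1, ERBB2, IGF1R, EPHA2 and MET, with no overlap between neighbours in that order. In NC and A3B OE cells it was AXL, EPHA2, MET, EGFR and FGFR1, followed by ERBB2, IGF1R and PDGFRB in NC and by PDGFRB, ERBB2 and IGF1R in A3B OE cells. Among these last 3, each overlapped the next in both groups. Over 58 receptor tyrosine kinases, the 10 and 48 others, summed FPKM was 363 to 401 in 92.1, 638 and 609 in NC, and 866 and 810 in A3B OE libraries. The 10 receptors made up 34.6% to 37.2% of that sum in 92.1, 68.3% and 69.1% in NC, and 77.3% and 76.5% in A3B OE libraries. AXL alone held 30.0% and 32.5% of it in NC and 49.3% and 48.4% in A3B OE libraries. Without AXL, the sum was 411 to 446 FPKM in all 4 libraries of MEL290. Among the other receptors, those with the highest means over both groups of a line were PTK7, TYRO3 and EPHB4 in 92.1 and RYK, EPHB2 and PTK7 in MEL290. The order differed by group, since TYRO3 was second to RYK in NC and lower in A3B OE cells, and DDR1 was above EPHB4 in shA3B cells.

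The control groups were compared to ask how receptors differ between the lines. The lines, their vectors and any difference in handling cannot be told apart in this comparison, and it shares its libraries with the A3B comparisons below. In limma on log2(FPKM + 1), 73.0% of 12352 genes tested were called at an adjusted p under 0.05. Of the receptors, 9 were tested and 6 called, a share near that background. ERBB3, EGFR, AXL and PDGFRB entered the test only through the line in which they were high, so their calls follow from the filter, and KIT was not tested. ERBB3 was higher in 92.1, with a log2 difference of 5.08 (SE 0.19, adjusted p = 1.23e-05). AXL was lower in 92.1 by the largest margin among the 9 tested, -7.58 (SE 0.11, adjusted p = 1.35e-06), ahead of EGFR at -5.36 (SE 0.13) and PDGFRB at -3.99 (SE 0.15). Such differences understate the change of genes near 0. MET and EPHA2, which passed the filter in both lines, were 3.59 and 4.04 times as high in NC as in shCtrl cells. Their log2 differences were -1.77 (SE 0.10) and -1.94 (SE 0.10), with adjusted p = 5.31e-05 and 3.53e-05. For the remaining receptors no difference was called. ERBB2 had a log2 difference of 0.00 with a 95% interval from -0.26 to 0.26, FGFR1 one of 0.00 from -0.31 to 0.31, and IGF1R one of -0.24 from -0.55 to 0.06. When each library was first corrected for GC and length, ERBB2 was called lower in 92.1, at -0.32 (adjusted p = 0.0176).

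Overexpression of A3B in MEL290 was examined next. Of 11611 genes tested, 17.8% were called, and of the 8 receptors tested AXL was the 1 called. AXL rose from 195 ± 4.56 to 410 ± 25.1 FPKM (SD, n = 2 each), 2.10 times the level in NC cells. The log2 difference was 1.07 with a 95% interval from 0.90 to 1.24 (SE 0.07, adjusted p = 0.00155, limma). It ranked 28 by p among all genes tested, and 182 genes had a larger positive difference. The difference was between 1.01 and 1.13 without any 1 library and AXL stayed called each time. With no filter on low values the difference was the same but the call was lost (adjusted p = 0.0590).

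The other 7 receptors tested in MEL290 were not called, and their differences lay between -0.13 and 0.14. For EGFR the difference was 0.02 with a 95% interval from -0.17 to 0.22, for EPHA2 0.01 from -0.21 to 0.23, and for MET 0.14 from -0.07 to 0.34. ERBB2 gave -0.11 from -0.36 to 0.14, IGF1R -0.12 from -0.39 to 0.15, PDGFRB 0.12 from -0.15 to 0.38, and FGFR1 -0.13 from -0.48 to 0.21. These intervals leave out a change as large as that of AXL. ERBB3 and KIT were too low to be tested in MEL290. The median log2 difference was 0.02 over the receptors tested and 0.00 over all genes.

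Depletion of A3B in 92.1 moved no receptor past the threshold. Of 11605 genes tested, 0.00862% were called, the 1 gene being APOBEC3B, and 0 of the 6 receptors tested were called by limma, of which 1 had an unadjusted p under 0.05. That receptor was MET, which was 1.40 times as high in shA3B as in shCtrl cells. Its log2 difference was 0.45 with a 95% interval from 0.14 to 0.77 (unadjusted p = 0.00937, adjusted p = 0.999, limma), and 336 genes reached an unadjusted p under 0.05. The other differences were -0.17 for ERBB2 with a 95% interval from -0.47 to 0.14, -0.14 for ERBB3 from -0.44 to 0.16, -0.12 for FGFR1 from -0.44 to 0.21, -0.09 for IGF1R from -0.46 to 0.29, and 0.08 for EPHA2 from -0.26 to 0.42. EGFR, AXL, PDGFRB and KIT were too low to be tested in 92.1. For any 1 gene, permuting 2 libraries against 2 exactly and two-sided gives a p of at least 0.33.

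Whether the effect of A3B on a receptor differed between the lines was tested as A3B-high minus A3B-low cells in MEL290 less the same in 92.1, in 1 fit of all 8 libraries. Of 12697 genes, 5.57% were called, and of 9 receptors AXL was the 1 called, with a difference of 1.12 and a 95% interval from 0.80 to 1.44 (adjusted p = 0.00839, limma). Without any 1 library it stayed called, with an adjusted p of up to 0.04998. Since AXL was at most 0.0726 FPKM in 92.1, log2(FPKM + 1) could hardly move there, and this value restates the change in MEL290 and does not show that the lines respond differently. MET came nearest among the others, with a difference of 0.59 and a 95% interval from 0.26 to 0.92 (adjusted p = 0.0549, limma). It combined 0.14 in MEL290 with a level in 92.1 that was lower, not higher, in the A3B-high cells. The other 7 differences, from -0.28 for ERBB2 to 0.09 for EPHA2, were not called.

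**Figure D2:**
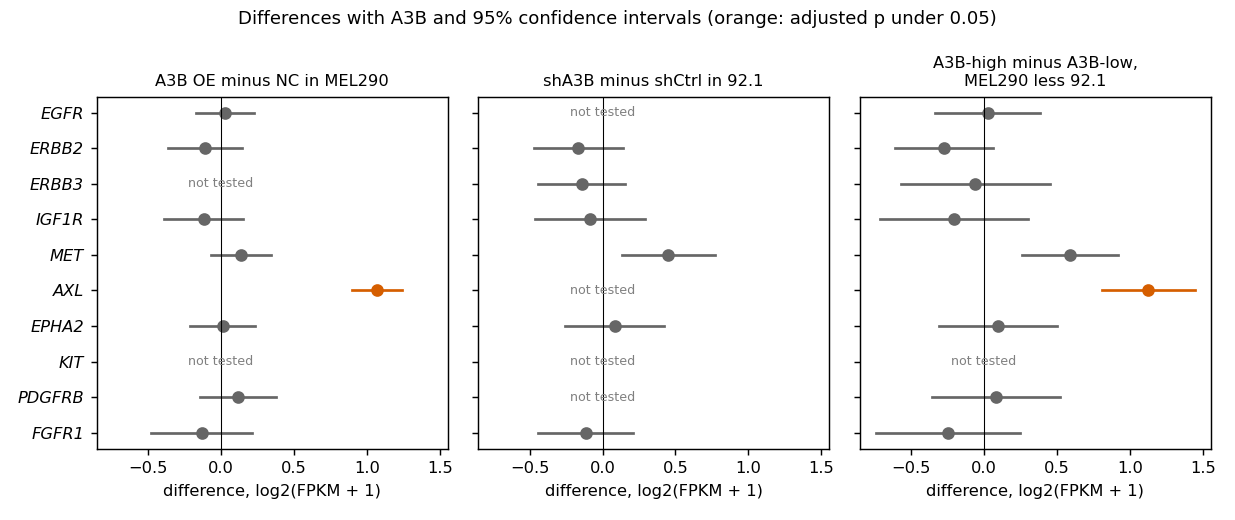
Points are differences in log2(FPKM + 1) for each receptor and lines are 95% confidence intervals from limma, in MEL290, in 92.1 and for the effect in MEL290 less that in 92.1, with called differences in orange and receptors too low to test marked. AXL alone is called, at 1.07 in MEL290 and 1.12 for the difference of effects, and MET lies at 0.45 in 92.1 without a call.

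AXL lies on the long arm of chromosome 19 (chr19:41219223-41261766, plus strand, GRCh38, GENCODE release 44), and genes around it also tended to be higher in A3B OE cells. Of 31 other genes tested within 1000 kb of its start, 28 had a difference above 0, 9 were called higher and 1 lower, and the median was 0.30. The largest of these was BLVRB at 0.93 and the nearest of those called was HNRNPUL1 at 0.69. TGFB1, the gene of transforming growth factor beta 1, had 0.76. AXL exceeded all 31. Past 28 Mb on chromosome 19, 106 of 449 genes tested were called higher and 17 lower, with a median of 0.23, and 9 had a larger difference than AXL. Of all 11611 genes tested, 5868 had a difference above 0, 1195 were called higher and 870 lower, with a median of 0.00. The part of the region in the rise of AXL was not tested.

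The ligands of the receptors shifted in MEL290 as well. Of 26 listed, 16 were tested, and with A3B OE 3 of them were called higher and 3 lower, a share of 37.5% against 17.8% of all genes. Their median was 0.26. GAS6, the ligand of AXL, was at 77.7 and 75.6 FPKM in NC and 172 and 160 FPKM in A3B OE libraries, a log2 difference of 1.11 (SE 0.07, adjusted p = 0.00155, limma). The receptor and its ligand were thus both higher in both A3B OE libraries than in either NC library. EGF, the ligand of EGFR, was low but higher in A3B OE cells, at 0.235 and 0.375 FPKM in NC and 1.85 and 1.08 FPKM in A3B OE libraries. EGF was under 1 FPKM in NC and entered the test only through A3B OE, so its call follows from the filter. KITLG rose from 5.56 and 5.37 FPKM to 7.52 and 9.53 FPKM in cells that listed KIT at 0. NRG1, a neuregulin that binds ERBB3, fell from 33.8 and 37.4 FPKM to 9.39 and 9.15 FPKM, a log2 difference of -1.83 (SE 0.10, adjusted p = 0.00109, limma). FGF2, which binds FGFR1, fell from 118 and 115 FPKM to 64.8 and 72.9 FPKM, with a difference of -0.75, and FGF18 fell with a difference of -0.78. The difference between the lines' effects was called for GAS6 (1.37), FGF2 (-0.79) and FGF18 (-0.82). GAS6 and FGF2 were at most 1.96 FPKM and FGF18 at most 0.124 FPKM in 92.1, and the value of FGF18 restates its change in MEL290. For NRG1 the difference of effects was -1.31 with an adjusted p of 0.0661 (limma).

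The ligands most abundant in 92.1 were EFNA3 and EFNA4, which bind ephrin-A receptors, and PDGFB, whereas those in MEL290 were GAS6, FGF5 and FGF2. Between the control groups, 5 of 18 ligands tested were called higher and 11 lower in 92.1, a share of 88.9% against 73.0% of all genes. PDGFB, at 12.2 and 19.7 FPKM in shCtrl cells that had almost no PDGFRB, was higher by 3.92, EFNA3 by 2.50 and EFNA2 by 2.05 on the log2 scale. PDGFB, EFNA2 and NRG2 were under 1 FPKM in NC and entered the test only through 92.1. BTC, FGF1, FGF5 and FGF18 were under 1 FPKM in shCtrl and entered only through NC, so the share partly follows from the filter. FGF5, listed at 0 in 92.1, stood at 101 and 97.5 FPKM in NC libraries, and the differences of FGF2 and GAS6 were -5.64 and -5.16. HGF, the ligand of MET, was at most 0.230 FPKM in 92.1 and listed at 0 in MEL290. In 92.1 with A3B depleted, 0 of 14 ligands tested were called by limma, and 0 had an unadjusted p under 0.05.

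**Figure D3:**
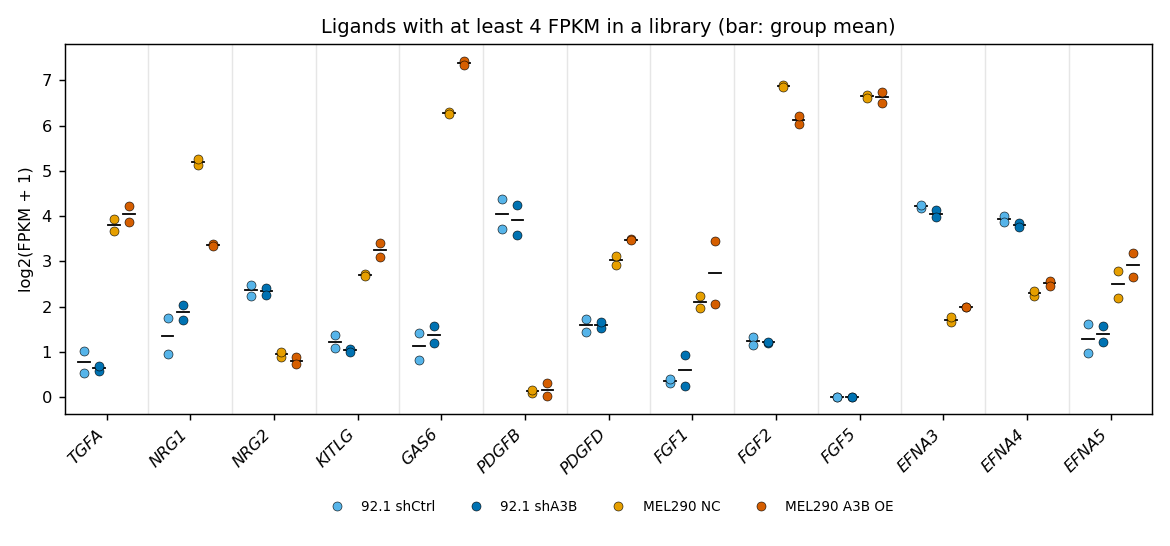
The vertical axis is log2(FPKM + 1), points are single libraries coloured by group, and bars are group means, for ligands with at least 4 FPKM in a library. GAS6 is higher and NRG1 and FGF2 are lower in A3B OE than in NC cells, and FGF5 is near 0 in 92.1 and high in MEL290.

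Among the 48 other receptor tyrosine kinases, 17 were tested in MEL290, with 4 called higher, 3 lower (41.2% against 17.8% of all genes) and a median of 0.17. TYRO3, the relative of AXL that also binds GAS6, fell from 32.1 and 26.5 FPKM in NC to 11.9 and 12.0 FPKM in A3B OE libraries, a log2 difference of -1.22 (SE 0.12, adjusted p = 0.00318, limma). The 2 TAM receptors present in MEL290 thus moved in opposite directions, and MERTK, the third, was at most 0.106 FPKM there. The WNT5A receptors ROR2 and ROR1 rose by 0.86 and 0.63, and the ephrin-B receptor EPHB2 by 0.50. FGFR3 and EPHA5 fell by 0.61 and 0.51 on the log2 scale. The difference between the lines' effects was called for TYRO3 (-1.18), which both lines expressed. It was called also for ROR2 (0.89), which was at most 0.0257 FPKM in 92.1, so that its value restates the change in MEL290. Between the control groups, 91.3% of the 23 tested were called, against 73.0% of all genes. Many of the 23 were under 1 FPKM in the controls of 1 line and entered through the other, so this share partly follows from the filter. In 92.1, 14 were called higher, led by FGFR4 (3.93), ALK (2.48) and FLT4 (2.07), and 7 lower, led by MST1R (-3.67), EPHB2 (-3.32) and EPHA4 (-2.64). Of these 6, EPHB2 alone reached 1 FPKM in both lines' controls, and the calls of the others follow from the filter. In 92.1 with A3B depleted, 0 of 20 were called by limma, and 0 had an unadjusted p under 0.05.

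Negative regulators of the receptors were called in MEL290 for 5 of 18 tested (27.8% against 17.8% of all genes), 4 higher and 1 lower, with a median of 0.12. ERRFI1, which encodes an inhibitor of EGFR family kinases, rose from 7.34 and 7.22 FPKM in NC to 21.1 and 20.0 FPKM in A3B OE libraries, a log2 difference of 1.38 (SE 0.10, adjusted p = 0.00181, limma). LRIG1, a membrane protein that promotes loss of ERBB receptors, rose by 0.84 and SOCS3, a suppressor of cytokine signalling, by 0.76, and GRB10, an adaptor that restrains the insulin and IGF1 receptors, fell by 0.49 on the log2 scale. PTPRJ, a receptor phosphatase, had the next rise, 0.67. The difference between the lines' effects was called for ERRFI1 (1.32) and GRB10 (-0.80). Of 22 adaptors and transducers, 18.2% were called, close to the 17.8% of all genes, with 2 called higher, GAB1 (0.63) and IRS2 (0.33), and 2 lower, PIK3R2 (-0.50) and PTPN11 (-0.35), with a median of -0.01 and 0 called for the difference between the lines' effects, where 2 had an unadjusted p under 0.05. Of 5 proteases that shed receptors or ligands, ADAM10 was called higher (0.50).

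Between the control groups, the adaptors were called for 14 of 22, with 6 higher in 92.1, led by SOS1 (1.70), GAB1 (1.61) and HRAS (1.07), and 8 lower, led by SHC1 (-1.93), IRS1 (-1.20) and GRB2 (-1.14). Negative regulators were called for 15 of 19, 9 of them higher in 92.1, where SPRY4 (3.75), SOCS2 (2.28) and SPRY1 (1.51) led, and 6 lower, where CBLB (-2.40), USP8 (-1.46) and PTPN1 (-1.03) led. Proteases were lower in 92.1 for 4 of 5, led by ADAM9 (-1.30), ADAM12 (-1.03) and ADAM10 (-0.69). These shares stand against 73.0% of all genes tested. In 92.1 with A3B depleted, 0 genes of these lists were called by limma, and 0 had an unadjusted p under 0.05.

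Markers of melanoma states moved beside AXL. All 10 melanocyte markers were called higher in 92.1 than in MEL290 controls, against 73.0% of all genes called, but all except MITF and GPR143 were under 1 FPKM in NC and entered the test only through 92.1. Of 8 undifferentiated markers tested, 7 were called lower in 92.1, some of them under 1 FPKM there, and 1, TEAD4, was called higher. NGFR, also on that list, was listed at 0 in all 8 libraries and was not tested. With A3B OE in MEL290, 0 of 3 melanocyte markers tested were called by limma, with 0 at an unadjusted p under 0.05. Of 8 undifferentiated markers tested there, 1 was called higher and 4 lower, a share of 62.5% against 17.8% of all genes. FOSL1, an AP-1 subunit, rose by 0.66, while INHBA and TNC fell by 0.75 and 0.72 on the log2 scale and JUN by 0.35. The summed level of the list fell from 1571 and 1566 FPKM to 1094 and 1009 FPKM. KRT18 and KRT8 fell by 0.66 and 0.40. AXL, itself often counted among such markers, thus rose while the summed level of this list was lower, and the part of these markers in the rise was not tested.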

How the data were processed

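RNA from 8 libraries, 2 in each of 4 groups named by the labels, was analysed from the FPKM values that the authors deposited, 1 per gene symbol and library. Per the study's methods, the authors used STAR with GRCh38 for the alignment of read pairs and Cufflinks with the genes of Ensembl release 75 for FPKM. They took differential genes from Cuffdiff, which needs the reads and is not used here. FPKM keeps no read counts, so no count test was used and depth is only roughly known. Gene positions, lengths and GC content came from GENCODE release 44, which held 19033 of the 19952 symbols.

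Genes with at least 1 FPKM in at least 2 libraries of a comparison were tested on log2(FPKM + 1) with limma 3.58.1 (eBayes with a trend) in R 4.3.3, and called at a Benjamini-Hochberg adjusted p under 0.05. Confidence intervals are at 95%. The receptors, the lists and their tests were chosen with earlier results of these data known. All 10 receptors are named in each comparison, and from each list the called genes whose libraries do not overlap, at most the 3 largest rises and 3 largest falls, with the 3 most abundant other receptors and ligands of each line. PTPRJ, HGF, MERTK, the genes near AXL and the single markers were named after their values were seen, as were the 4 windows printed. A marker gene that the rule would name is not reported here. Alternatives covered the trend, scaling, filter, pseudocount, GC content and length, replicate block, libraries in the fit, the sign of the contrast and each library left out. A fit with no filter but without genes listed at 0 in every library, and leaving out libraries with the tested genes held fixed, were added after seeing the data. Replicate numbers do not pair the libraries by any label, and libraries of the same number deviated from their group means with a correlation of -0.03 in MEL290 and 0.19 in 92.1.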

Additional observations from a re-analysis of the deposited data

Results flagged for a closer look

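For AXL, the test of the difference between the lines' A3B effects passed the threshold, though it cannot show that the lines respond differently. A3B-high minus A3B-low cells in MEL290 less the same in 92.1 gave 1.12 on the log2(FPKM + 1) scale (adjusted p = 0.00839, limma), with 191 to 427 FPKM in the 4 MEL290 libraries and at most 0.0726 FPKM in 92.1, so the value restates the rise of 1.07 in MEL290.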

How the results depend on the processing

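Of the results for single receptors, AXL lost its call in MEL290 in 1 of the alternatives, the fit with no filter, at 1.07 (adjusted p = 0.0590), and over all alternatives its difference there ran from 1.01 to 1.13. That fit called 2 genes in MEL290 in place of 2065 and 0 receptors, and 0 genes in 92.1. It lets in genes listed at 0 in every library, which have no spread. Without those genes, a setting chosen after seeing the data, 915 genes were called in MEL290, AXL among them, and 0 in 92.1. In 92.1, limma without the trend called 2 genes and the replicate block 37 (20 higher and 17 lower), with 0 receptors called in each. With the replicate block within each line, the difference between the lines' effects was called for 312 genes in place of 707, AXL included. With at least 1 FPKM required in every library, 2 receptors were called between the control groups, EPHA2 and MET, and 0 for the difference between the lines' effects, where AXL was no longer tested. The samples share only a replicate number, and the block changed no receptor's call.

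Leaving out 1 library gave 774 to 1979 genes called in MEL290, with the fewest without A3B OE replicate 2 (809, or 774 with the tested genes held fixed) and 902 or 888 without A3B OE replicate 1. It gave 2 to 9 genes in 92.1 and 67 to 424 for the difference between the lines' effects, with the fewest without A3B OE replicate 2, and AXL was called each time. Between the control groups it gave 3 to 5 receptors, or 6 with the tested genes held fixed. It gave 3 without either NC library, where EGFR, AXL and PDGFRB left the test.

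Every reversal of direction was of a difference that was not called in the full fit. Between the control groups, ERBB2 and FGFR1 were -0.057 and -0.066 with quantile normalization, -0.062 and -0.062 with upper quartile scaling, and -0.32 and -0.077 with correction for GC and length, and ERBB2 was -0.028 over both groups of each line. EPHA2 in MEL290 was -0.014 with that correction. For the difference between the lines' effects, ERBB3 was 0.20 with a pseudocount of 0.1. The setting with the other sign of the 92.1 effect adds the effects of the lines and so measures another quantity. In that sum ERBB2 was 0.058, ERBB3 0.23, MET -0.32 and EPHA2 -0.071, with signs that follow from the changed contrast. The adjusted p of MET (limma) ran from 0.0504 to 0.274 over the settings other than leaving out a library, with that sum among them. Leaving out 1 library moved EGFR between -0.016 and 0.065, EPHA2 between -0.085 and 0.11 and FGFR1 between -0.28 and 0.016 in MEL290. It moved IGF1R between -0.315 and 0.14, EPHA2 between -0.056 and 0.22 and FGFR1 between -0.27 and 0.033 in 92.1, and ERBB2 between -0.049 and 0.051 and FGFR1 between -0.14 and 0.15 between the control groups. For the difference between the lines' effects it moved EGFR between -0.016 and 0.065, ERBB3 between -0.27 and 0.15, PDGFRB between -0.036 and 0.20, IGF1R between -0.43 and 0.021 and EPHA2 between -0.044 and 0.23. Apart from the setting with the other sign, the cause of these shifts was not tested. Levels under 1 FPKM, with depth only loosely known, limit what can be said of KIT in both lines, of EGFR, AXL and PDGFRB in 92.1 and of ERBB3 in MEL290.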
